A study of Mus musculus with 16 samples.

Results

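The class 3 semaphorins Sema3a, Sema3b, Sema3c, Sema3d, Sema3e, Sema3f and Sema3g and their receptors Nrp1 and Nrp2 were followed in ear skin of ageing mice. These 9 genes were taken by name, out of 45706 genes with an entry in the count table, and all 9 passed the filter on low counts that left 20116 genes for testing. They were chosen by name with the CPM values and the within-mouse change between the ages in view, so that change is given here as a description, and counts of these genes past a threshold are printed only beside the share over all genes. The data were 16 RNA-seq libraries of total RNA from the ears of 8 male mice of the strain C57Bl/6J, with no stated genetic change or treatment. Each mouse gave a biopsy of the first ear at a nominal age of 24 months (23.8 to 24.4 months, called young in the labels) and of the second ear at 30 months (29.0 to 30.1 months, called old), so that age and ear cannot be told apart. Mice carry the numbers of the labels: 13, 14, 21, 29, 43, 50, 64 and 75. Levels are given as CPM, the count of a gene relative to the library size after scaling by the trimmed mean of M-values, and, where genes are compared with each other, as RPKM, which also divides by the length of the exons.

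Class 3 semaphorins are secreted ligands that steer growing axons and also act on vessels, immune cells and epithelia. Most of them bind a neuropilin, a receptor with a short intracellular tail, and the signal is carried into the cell by an A-type plexin or plexin D1, which then acts on the cytoskeleton through small GTPases, collapsin response mediator proteins and MICAL enzymes. Neuropilins also bind vascular endothelial growth factors, and in skin the family is best known for keeping sensory fibres out of the epidermis and for shaping blood and lymphatic vessels. An ear biopsy holds epidermis, hair follicles, sebaceous glands, dermis, vessels, nerve, muscle and cartilage. In such bulk tissue, fewer cells of a type and less RNA per cell cannot be told apart.

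Libraries held 22967222 to 36162431 counts on genes (median 28922265), and a further 18.7% to 21.1% of counted reads were assigned to no gene. Over both ages, the genes were covered by between 189 counts (the lowest library of Sema3g) and 7909 counts (the highest library of Sema3d). At the median count, counting error alone was 1.38% of the level for Sema3d and 5.86% for Sema3g, below the variation over mice at either age. Keratinocyte markers were abundant in every library, with a summed level of the basal list of 8790 to 17372 CPM, and no marker list fixed for the skin was at 0.

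Both neuropilins varied together over the libraries, as described below. The part of their promoters in this was not tested, and the sequences before their RefSeq starts are shown as a description. They are the 250 bases upstream of the RefSeq start on build GRCm38.p6, which lies downstream of the GENCODE gene start given further on, so that the Nrp1 stretch lies inside the GENCODE gene and the Nrp2 stretch runs into it. They are read 5′ to 3′, at chr8:128358823-128359072 (plus strand) for Nrp1 and chr1:62703067-62703316 (plus strand) for Nrp2. Capitals mark GGGCGG on either strand, the core of the GC box.
Nrp1: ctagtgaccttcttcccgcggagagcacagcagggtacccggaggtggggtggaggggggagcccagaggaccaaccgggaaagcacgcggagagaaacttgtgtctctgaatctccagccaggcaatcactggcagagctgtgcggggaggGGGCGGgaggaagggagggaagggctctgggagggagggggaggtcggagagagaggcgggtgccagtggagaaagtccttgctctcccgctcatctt
Nrp2: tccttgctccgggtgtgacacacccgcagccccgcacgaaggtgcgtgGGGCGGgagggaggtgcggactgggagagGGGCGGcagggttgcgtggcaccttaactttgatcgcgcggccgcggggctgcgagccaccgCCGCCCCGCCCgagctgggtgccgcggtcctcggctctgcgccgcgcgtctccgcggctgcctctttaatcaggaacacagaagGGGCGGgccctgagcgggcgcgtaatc
The Nrp1 sequence held 1 match and 11 CpG, and the Nrp2 sequence held 5 matches, a pair of them overlapping, and 32 CpG. Among 32851 RefSeq sequences of the same length, 32.7% held GGGCGG on either strand, and the median was 6 CpG. A match describes the letters only. Of the semaphorins with an entry, Sema3c had the most CpG (39, more than in 98.4% of the sequences) and Sema3a the fewest (2), while Sema3d had 4 and Sema3e had 7. Sema3b and Sema3f had no entry.

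The genes spanned a wide range of levels, with 3 semaphorins far above the rest. Averaged over the 16 libraries, Sema3f had the highest level with 23.7 ± 2.65 RPKM (SD over libraries), followed by Sema3d with 21.4 ± 5.20 RPKM and Sema3c with 12.4 ± 2.22 RPKM. Nrp1 (4.83 ± 1.08 RPKM) and Nrp2 (4.51 ± 0.925 RPKM) came next, ahead of Sema3b with 3.26 ± 0.731 RPKM, Sema3e with 2.52 ± 1.001 RPKM and Sema3g with 2.40 ± 0.645 RPKM. Sema3a, which repels sensory axons through Nrp1, had the lowest level with 1.02 ± 0.328 RPKM.

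Neighbours in this order are described by the difference of their levels on the log2(RPKM + 0.1) scale, averaged over both biopsies of a mouse, with its SD over the 8 mice and no test, since the order was read from the same libraries. Sema3d stood above Sema3c by 0.76 (SD 0.23), Sema3c above Nrp1 by 1.35 (SD 0.24), Nrp2 above Sema3b by 0.46 (SD 0.24) and Sema3g above Sema3a by 1.17 (SD 0.28), each in 8 of 8 mice. Other neighbours differed by less than the SD: Sema3f was above Sema3d by 0.18 (SD 0.23) in 6 of 8 mice, Nrp1 above Nrp2 by 0.10 (SD 0.16) in 6 of 8, Sema3b above Sema3e by 0.42 (SD 0.50) in 7 of 8 and Sema3e above Sema3g by 0.01 (SD 0.38) in 4 of 8. At 24 months alone the order of Sema3f and Sema3d was turned (difference -0.07). In the library of mouse 29 at 30 months, Sema3d (12.5 RPKM) was below Sema3c (17.4 RPKM).

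**Figure D1:**
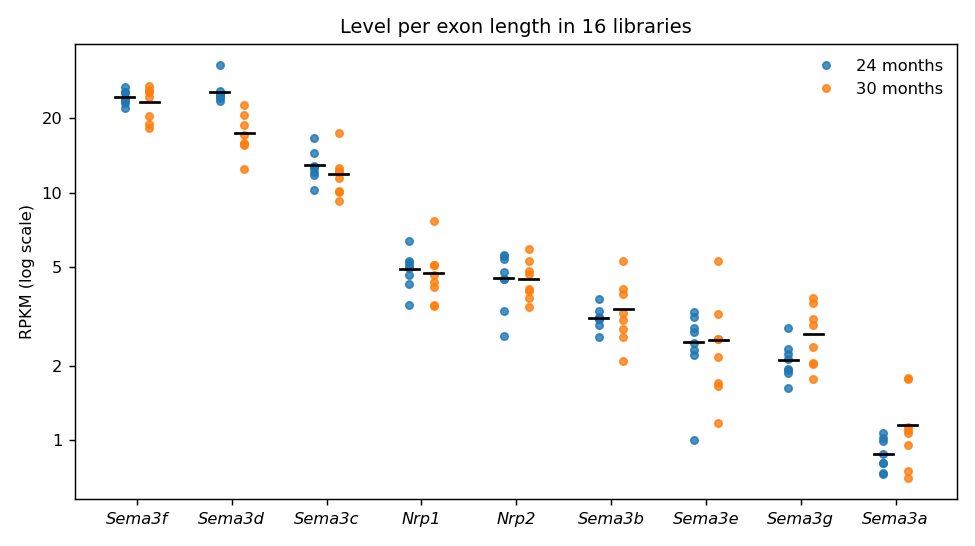
Level of each gene in RPKM (log scale) in the 16 libraries, with 8 points for each age (blue for 24 months, orange for 30 months) and a black line at the mean. Sema3f, Sema3d and Sema3c lie above all other genes, and the Sema3d points at 30 months (12.5 to 22.6 RPKM) lie below those at 24 months (23.4 to 32.8 RPKM).

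Sema3d, a ligand that acts on developing vessels and heart through Nrp1, was the gene whose ages lay apart. It had 200.1 CPM in the lowest, 210.3 CPM in the median and 282.9 CPM in the highest library at 24 months, against 111 CPM, 141 CPM and 195 CPM at 30 months. Every library at 30 months was below every library at 24 months, and the level was lower in 8 of 8 mice. The smallest decrease was that of mouse 64, from 209.8 to 194.6 CPM, and the largest that of mouse 29, from 210.8 to 111 CPM. The means were 219 ± 27.5 CPM (SD, n = 8) at 24 months and 149.6 ± 27.1 CPM at 30 months, a log2 fold change of -0.56 (SE 0.086), or 32.3% less. Without any 1 mouse the log2 fold change was between -0.63 and -0.51.

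Over all 20116 genes tested, 0% passed an adjusted p under 0.05 in edgeR (0 genes, against 230 in the Wald test of DESeq2), and with edgeR 0 of the 9 genes did. An unadjusted p under 0.05 was reached by 12.2% of all genes (2454 genes) and by 1 of the 9, Sema3d. A level that was lower in all 8 mice was found for 1.8% of all genes and for 1 of the 9, and one that was higher in all 8 mice for 1.09% of all genes and for 0 of the 9. Ages that did not overlap, with 30 months lower, were found for 0.144% of all genes and again for Sema3d only among the 9. These counts are background for a contrast that the choice of genes had used, and nothing is read from them. The median log2 fold change of the 9 genes was -0.05, with 5 lower and 4 higher, against 0.01 over all genes tested.

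**Figure D2:**
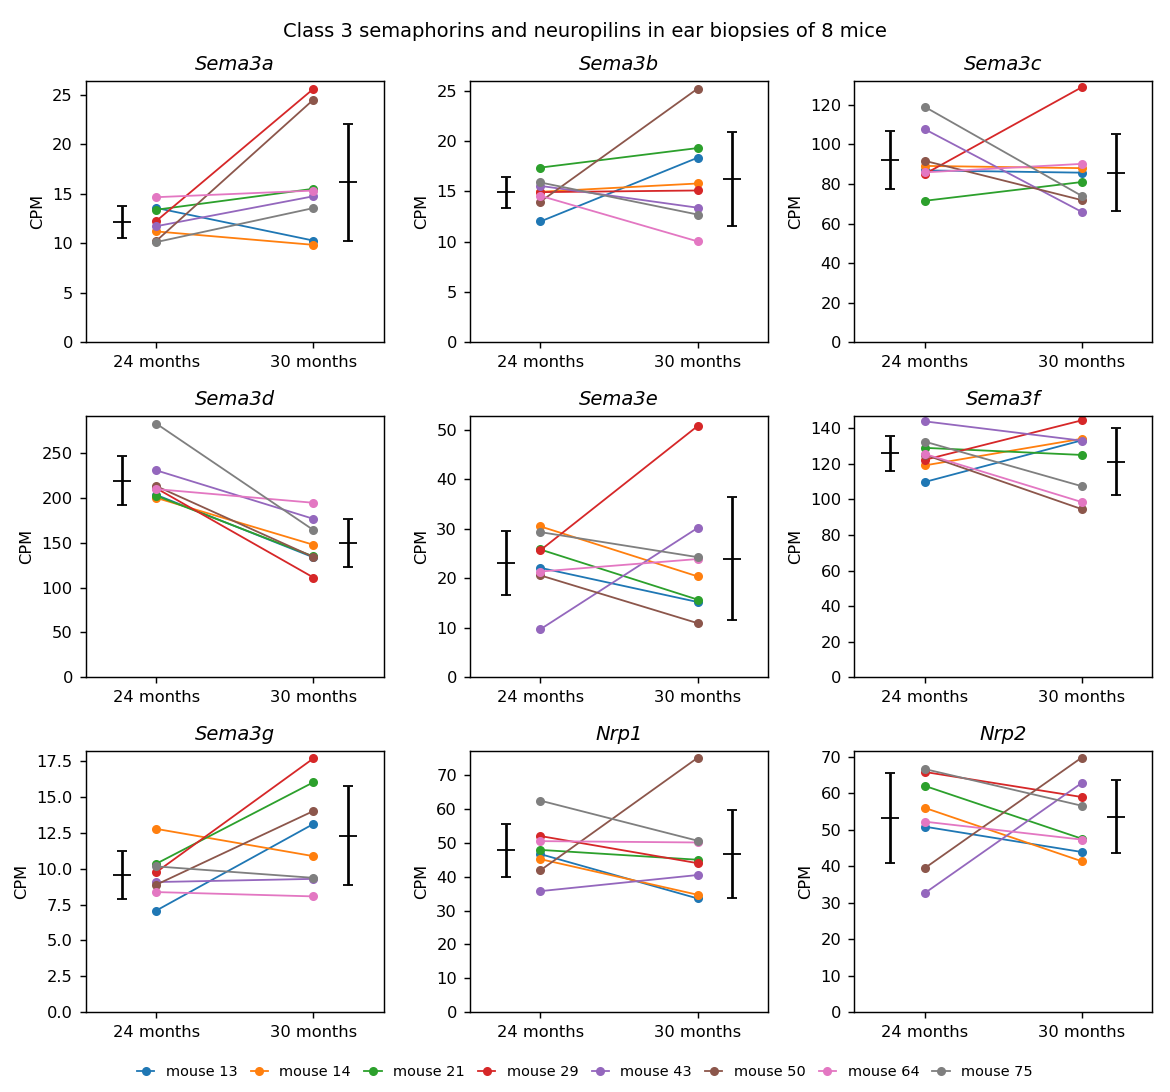
CPM of each of the 9 genes in the biopsies of the 8 mice at 24 and 30 months, each line joining both biopsies of 1 mouse, with the mean and SD (n = 8) of each age as black bars beside the points. All axes start at 0; all 8 lines of Sema3d go down, whereas in each of the other panels lines go both ways.

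Sema3c and Sema3f, the other abundant ligands, overlapped between the ages. Sema3c, which binds both neuropilins, had 71.5, 88.0 and 119 CPM in the lowest, median and highest library at 24 months and 65.9, 83.4 and 129 CPM at 30 months, with a log2 fold change of -0.12 (SE 0.14). It was higher in 3 mice and lower in 5, and mouse 29 alone had over 100 CPM at 30 months. Without this mouse its log2 fold change was -0.22, and without mouse 43 it was -0.03. Sema3f, a ligand of Nrp2 that repels axons and restrains vessel growth, had 109.7, 125 and 144 CPM at 24 months and 94.5, 129 and 144 CPM at 30 months, with a log2 fold change of -0.07 (SE 0.090), which was -0.11 without mouse 13 and -0.02 without mouse 50. Its lowest values at 30 months, those of mice 50, 64 and 75, were below every library at 24 months.

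The share of Sema3d among the ligands was computed from the same values. Summed over the 7 semaphorins, the level was 71.4 ± 5.59 RPKM at 24 months and 62.2 ± 4.64 RPKM at 30 months. Sema3d made up 35.7% ± 1.54 of this sum at 24 months, with a range over mice of 33.9% to 38.9%, and 28.1% ± 5.79 at 30 months, with a range of 17.7% to 36.6%. Its within-mouse change was -7.67 ± 5.68 percentage points, with a range of -17.9 to 1.19, so that its share did not fall in every mouse. Sema3f made up 34.1% ± 2.02 and then 37.2% ± 3.77, and Sema3c 18.1% ± 1.62 and then 19.1% ± 2.90; their within-mouse changes, 3.08 ± 4.26 and 1.004 ± 3.84 percentage points, were within the spread and went both ways. The ratio of Sema3d to Sema3f in RPKM was 1.05 ± 0.109 at 24 months and 0.771 ± 0.226 at 30 months and was lower in 7 of 8 mice. The ratio of Sema3d to Nrp1 was 5.30 ± 0.901 and then 3.84 ± 1.03, lower in 8 of 8 mice.

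The 4 less abundant ligands had a wide spread over mice at 30 months. Sema3a had 10.1, 11.99 and 14.7 CPM in the lowest, median and highest library at 24 months and 9.84, 15.04 and 25.6 CPM at 30 months, with a log2 fold change of 0.35 (SE 0.18). It was higher in 6 of 8 mice, and mice 29 (12.2 to 25.6 CPM) and 50 (10.2 to 24.5 CPM) carried the highest values. Without mouse 50 its log2 fold change was 0.22. Sema3g, a ligand of Nrp2 known from endothelium, had 7.08, 9.41 and 12.8 CPM at 24 months and 8.07, 11.99 and 17.7 CPM at 30 months, with a log2 fold change of 0.34 (SE 0.15). It was higher in 5 mice and lower in 3, and 4 libraries at 30 months were above every library at 24 months.

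Sema3b, a neighbour of Sema3f that has been studied as a tumour suppressor, had 12.004, 14.9 and 17.4 CPM at 24 months and 10.03, 15.4 and 25.2 CPM at 30 months, with a log2 fold change of 0.08 (SE 0.15). Mouse 50 had the highest value at 30 months, and without this mouse the log2 fold change was -0.03. Sema3e, which can bind plexin D1 without a neuropilin, had 9.69, 23.9 and 30.4 CPM at 24 months and 10.9, 22.1 and 50.7 CPM at 30 months, with a log2 fold change of -0.05 (SE 0.27). The mice went different ways: mouse 43 went from 9.69 to 30.1 CPM and mouse 29 from 25.6 to 50.7 CPM, whereas mouse 50 went from 20.6 to 10.9 CPM. Its log2 fold change was -0.27 without mouse 43 and 0.08 without mouse 50, so that its sign rested on single animals.

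The neuropilins had nearly equal means at both ages, 47.8 ± 7.83 and 46.7 ± 13.1 CPM for Nrp1 and 53.2 ± 12.2 and 53.6 ± 10.04 CPM for Nrp2 (SD, n = 8). Nrp1, the receptor for Sema3a and a co-receptor for vascular endothelial growth factor, had 35.8, 47.3 and 62.5 CPM in the lowest, median and highest library at 24 months and 33.6, 44.5 and 75.2 CPM at 30 months, with a log2 fold change of -0.06 (SE 0.13). Nrp2, the receptor for Sema3f and a co-receptor on lymphatic vessels, had 32.6, 54.2 and 66.7 CPM at 24 months and 41.4, 52.1 and 69.8 CPM at 30 months, with a log2 fold change of 0.02 (SE 0.16). Both genes were lower in the same 6 mice and higher in mice 43 and 50. In mouse 50, Nrp1 went from 41.9 to 75.2 CPM and Nrp2 from 39.5 to 69.8 CPM. Without mouse 50 the log2 fold change was -0.19 for Nrp1 and -0.09 for Nrp2, and without mouse 43 it was -0.10 for Nrp1 and -0.11 for Nrp2. The ratio of Nrp2 to Nrp1 in RPKM was 0.913 ± 0.121 at 24 months and 0.975 ± 0.176 at 30 months, higher in 4 mice and lower in 4.

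The spread over mice was larger at 30 months for 8 of the 9 genes. The coefficient of variation of CPM went from 13.5% to 36.4% for Sema3a, from 10.4% to 29.0% for Sema3b and from 28.2% to 52.0% for Sema3e, and Nrp2 alone went the other way, from 23.0% to 18.7%. Over all genes tested, 78.2% had a larger coefficient of variation at 30 months, so that this was a feature of the table as a whole.

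The genes lie at few places in the genome (GRCm38, GENCODE annotation). Sema3d (chr5:12383385-12588948), Sema3a (chr5:13125414-13602565), Sema3e (chr5:14025276-14256689) and Sema3c (chr5:17574281-17730268) lie on the plus strand of chromosome 5 within 5.35 Mb. Their log2 fold changes, -0.56, 0.35, -0.05 and -0.12, had no common sign. Of the 12 other genes tested in this interval, 5 were lower and 7 higher at 30 months, with a median log2 fold change of 0.02, and 0 had an unadjusted p under 0.05 in edgeR. Sema3b (chr9:107597674-107609229) and Sema3f (chr9:107681500-107710475) lie 72.3 kb apart on the minus strand of chromosome 9. Sema3g is at chr14:31217860-31230352, Nrp1 at chr8:128358604-128503363 and Nrp2 at chr1:62703285-62818695, each on the plus strand.

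Some genes overlap others, and the library kit does not keep the strand. The processed pseudogene Gm8925 lies inside Sema3d on the opposite strand and had 826 to 1188 counts per library, with a log2 fold change of 0.06. The transcript Gm37121 lies inside Nrp2 on the same strand and had 36 to 80 counts. All other genes that overlap one of the 9 had at most 5 counts in any library.

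Over the 16 libraries, Nrp1 and Nrp2 had the highest Pearson correlation of log2 CPM of any pair among the 9 genes (r = 0.73), with a Spearman's rho of 0.71, and over the 8 within-mouse changes r was 0.81. Sema3b and Sema3g had r = 0.67 and the highest rho of any pair (0.79). Sema3d and Sema3g went opposite ways (r = -0.73, rho = -0.66), as did Sema3f and Nrp1 (r = -0.63, rho = -0.67). These and the following correlations are descriptions over libraries that come in pairs from 8 mice and share the difference in age.

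Each gene was also set against lists of marker genes for the cell types of the ear. Sema3e followed the sebaceous gland list (r = 0.90 over 16 libraries, r = 0.97 over the changes of 8 mice): in mouse 43 the mean log2 CPM of this list changed by 1.31 and in mouse 29 by 0.87, where Sema3e was also higher, and in mouse 50 by -0.35. The genes most like Sema3e were Pex11a (r = 0.95), a peroxisomal membrane protein, Alcam (r = 0.94), a cell adhesion molecule, and Elovl4 (r = 0.93), an elongase of very long chain fatty acids. Sema3g and Sema3b had their highest correlation with the pericyte and smooth muscle list (r = 0.87 and r = 0.85). Sema3g also followed the blood endothelium list (r = 0.79), and Esam, an endothelial adhesion molecule of that list, was among the genes most like it (r = 0.92), beside Mvp (r = 0.93) and Hoxd10 (r = 0.92).

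Nrp1 had its highest correlation with the macrophage list (r = 0.74), followed by the fibroblast list (r = 0.71). The mast cell list (r = 0.68) and the T cell list (r = 0.65) came close behind, with rho = 0.50 and rho = 0.41. The hair follicle list followed with r = 0.61 and rho = 0.58. Over the changes of 8 mice it had the highest rho of any list with Nrp1 (0.86). In the second biopsy of mouse 50, where Nrp1 was at its highest, each of these lists was higher in mean log2 CPM. The changes were 1.73 for macrophages, 1.70 for fibroblasts, 1.16 for mast cells, 2.09 for T cells and 1.02 for hair follicle. Ms4a7, a macrophage gene (r = 0.88), BE692007 (r = 0.91) and Rab32 (r = 0.88) were most like Nrp1. Nrp2 had its highest correlation with the hair follicle list (r = 0.67), followed by the macrophage list (r = 0.52, rho = 0.55). The genes most like Nrp2 were Slc23a2, an ascorbate transporter (r = 0.91), the overlapping Gm37121 (r = 0.91) and Runx1, a transcription factor (r = 0.89). Sema3f had its highest correlation with the basal keratinocyte list (r = 0.69, but rho = 0.29) and its lowest with the macrophage list (r = -0.76, rho = -0.56), and Cdc42ep1, Fam160b2 and Tacc2 were most like it (r = 0.89, 0.88 and 0.87).

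Sema3a had its highest correlation with the macrophage list (r = 0.72, rho = 0.63), followed by the lymphatic endothelium list (r = 0.68, rho = 0.62). The activated keratinocyte list (r = 0.60) had the highest rho with it (0.68), but its genes went different ways. Its keratins Krt6a, Krt6b and Krt16 had log2 fold changes of -0.10, -0.17 and -0.06, each within its SE. S100a8 and S100a9 had 0.92 (SE 0.69) and 1.23 (SE 0.94), with lowest levels of 0.82 and 0.25 CPM at 24 months. Ddr2, a collagen receptor, Resf1 and Slc7a8 were most like Sema3a (each r = 0.92). Sema3c had its highest correlation with the fat cell list (r = 0.54), and Hadhb, an enzyme of fatty acid oxidation (r = 0.86), Slc25a34 (r = 0.82) and Gm16170 (r = 0.82) were most like it. For Sema3b the genes most like it were Pdia5 (r = 0.91), Parm1 (r = 0.90) and Cpne2 (r = 0.90).

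**Figure D3:**
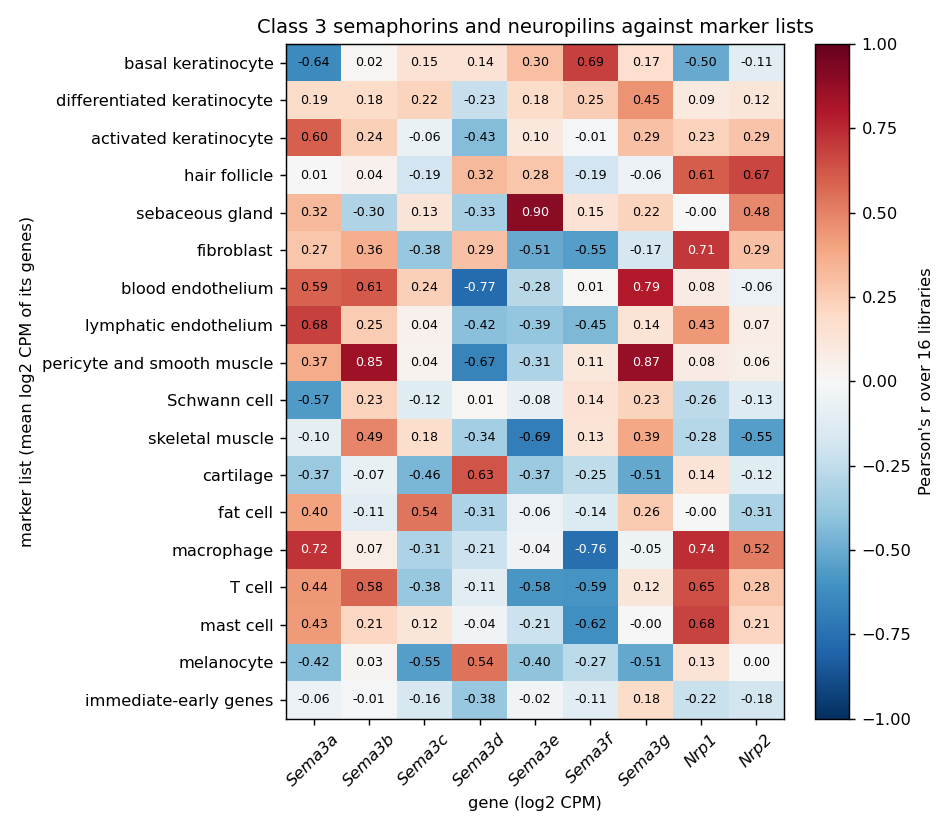
Pearson's r over 16 libraries between log2 CPM of each of the 9 genes (columns) and the mean log2 CPM of each marker list (rows), on a colour scale from -1 (blue) to 1 (red). The highest value is that of Sema3e with the sebaceous gland list (0.90) and the lowest that of Sema3d with the blood endothelium list (-0.77).

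Sema3d had its highest correlation with the cartilage list (r = 0.63) and its lowest with the blood endothelium list (r = -0.77), and both lists also differed between the ages. All 6 tested cartilage genes of 7 listed were lower at 30 months, Acan (-0.125, SE 0.17) and Matn3 (-0.21, SE 0.40) by less than the SE. Of the 6, 4 had an unadjusted p under 0.05, beside 7.37% of all genes in that direction. An adjusted p under 0.05 was reached by 0 in edgeR (1 in DESeq2), and the median log2 fold change was -0.48. The summed cartilage level ranged from 107 to 197 CPM at 24 months and from 85.2 to 142 CPM at 30 months, and Matn1, a defining cartilage gene, had at most 0.149 CPM. In mice 64 and 75 the mean log2 CPM of the cartilage list was higher at 30 months, by 0.23 and 0.22, whereas the log2 change of Sema3d was -0.11 and -0.78. All 8 blood endothelium genes were higher at 30 months, 5 of them with an unadjusted p under 0.05, beside 4.83% of all genes in that direction, and 0 with an adjusted one in edgeR (1 in DESeq2), with a median of 0.59 and a summed level of 118 to 179.5 CPM and then 124 to 342 CPM. The melanocyte list had r = 0.54 with Sema3d and the highest Pearson correlation of any list over the within-mouse changes (r = 0.56, against 0.50 for cartilage). By rank it was not the highest, with a rho of 0.26 over the changes, below 0.38 for cartilage and 0.43 for immediate-early genes. In mouse 29, where Sema3d changed by -0.92, the mean log2 CPM of the melanocyte list changed by -2.64. All 5 of its genes were lower at 30 months, 1 with an unadjusted p under 0.05 and 0 with an adjusted one in edgeR or DESeq2, with a median of -0.48 and a summed level of 76.9 to 159 CPM and then 27.3 to 102.6 CPM, and its mean log2 CPM was lower in 7 of 8 mice. Immediate-early genes, which respond within minutes to handling and stress, were higher in mean log2 CPM in 8 of 8 mice, with a summed level of 229 to 334 CPM and then 265 to 1071 CPM. Of these 8 genes, 6 were higher with an unadjusted p under 0.05, beside 4.83% of all genes in that direction. An adjusted p under 0.05 was reached by 0 in edgeR and 4 in DESeq2. Over the 16 libraries, unlike over the changes, this list went opposite to Sema3d (r = -0.38, rho = -0.54). The part of these lists in the level of Sema3d was not tested.

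Among the genes most like Sema3d over the 16 libraries were Zfp266, a zinc finger protein (r = 0.93), and Nkd2, an inhibitor of Wnt signalling (r = 0.91). Their log2 fold changes were -0.36 (SE 0.068) and -0.91 (SE 0.17), so that they share the difference between the ages with it. Over the changes of the 8 mice the correlation with Sema3d was 0.78 and 0.74.

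Other genes of the pathway were taken from fixed lists, and 0 of them passed an adjusted p under 0.05 in edgeR, against 1, Plxna3, in DESeq2. Of the plexins and adhesion co-receptors, 12 of 13 were tested, 10 were lower and 2 higher at 30 months, with a median log2 fold change of -0.11, and 3 had an unadjusted p under 0.05, all lower, beside 7.37% of all genes in that direction. Plxna3, a plexin that works with Nrp2 for Sema3f, had 42.6 ± 9.76 CPM at 24 months and 27.5 ± 5.76 CPM at 30 months and was lower in 8 of 8 mice (log2 fold change -0.62, SE 0.15, edgeR adjusted p = 0.215). The others were Plxnb1 (-0.22, SE 0.093) and Nrcam, an adhesion molecule that associates with Nrp2 (-0.31, SE 0.13). Plxnb1 had the second highest level of the list with 21.7 RPKM. Plxnb2, the highest with 29.1 RPKM, and Plxna1, the third with 12.1 RPKM, had log2 fold changes of -0.13 (SE 0.089) and -0.09 (SE 0.10), and Plxnc1 had -0.28 (SE 0.17).

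Of the 23 intracellular effectors, all were tested, 17 were higher and 6 lower, with a median of 0.05, and 1 of 23 had an unadjusted p under 0.05, beside 12.2% of all genes. That gene was Pak1, a kinase downstream of Rac, with a log2 fold change of -0.20 (SE 0.061) and a lower level in 8 of 8 mice. It was named after its value was seen, as the single call of this list. The most abundant effectors, the actin-severing Cfl1 (65.8 RPKM), its regulator Limk2 (44.6 RPKM) and the adaptor Gipc1 (41.3 RPKM), had log2 fold changes of 0.08 (SE 0.080), 0.04 (SE 0.085) and 0.09 (SE 0.058). The largest values were those of the low genes Rnd1 (0.39, SE 0.28), Crmp1 (0.33, SE 0.21) and Dpysl4 (-0.28, SE 0.18).

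The estimates of all 8 genes of the list of vascular endothelial growth factors and their receptors were above 0, that of Vegfb by less than its SE, with a median of 0.30, and 2 had an unadjusted p under 0.05, beside 4.83% of all genes in that direction. These were the receptors Kdr, from 16.1 ± 2.22 to 23.5 ± 6.96 CPM (log2 fold change 0.51, SE 0.16, edgeR adjusted p = 0.281), and Flt4, from 15.9 ± 2.34 to 23.4 ± 9.45 CPM (0.49, SE 0.16, edgeR adjusted p = 0.301). Flt1 had 0.53 (SE 0.28). The ligands Vegfa, Vegfb and Vegfd had 0.19 (SE 0.16), 0.00 (SE 0.12) and 0.42 (SE 0.20). Kdr and Flt1 are themselves endothelial genes, and the blood endothelium list was higher beside them, as given above. All 5 genes of the lymphatic endothelium list were higher too, Ccl21a (0.03, SE 0.29) by less than its SE, with a median of 0.25. The mean log2 CPM of this list was higher in 6 of 8 mice. The part of either list in the levels of Kdr, Flt1 and Flt4 was not tested.

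Of the 13 semaphorins outside class 3, 10 were higher and 3 lower, with a median of 0.06, and 1, Sema6b, had an unadjusted p under 0.05, beside 4.83% of all genes in that direction (log2 fold change 0.59, SE 0.26). Sema5b, a low gene with means of 0.39 CPM at 24 months and 0.56 CPM at 30 months, had 0.48 (SE 0.26). Sema4d, a transmembrane semaphorin of lymphocytes, had 0.34 (SE 0.17). The most abundant, Sema4a (19.5 RPKM), Sema4b (13.8 RPKM) and Sema4c (9.82 RPKM), had -0.04 (SE 0.076), 0.01 (SE 0.082) and 0.03 (SE 0.14). The 4 proprotein convertases, enzymes that cleave class 3 semaphorins, had small log2 fold changes, with Furin at 0.10 (SE 0.083), Pcsk5 at 0.07 (SE 0.21), Pcsk6 at -0.12 (SE 0.082) and Pcsk7 at -0.05 (SE 0.063), and none had an unadjusted p under 0.05.

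Of the other axon guidance genes, 12 of 16 were tested, 7 were higher and 5 lower, with a median of 0.09, and 4 had an unadjusted p under 0.05, 3 lower and 1 higher, beside 7.37% and 4.83% of all genes. Unc5c, a netrin receptor, was lower in 8 of 8 mice (log2 fold change -0.49, SE 0.13, edgeR adjusted p = 0.225), and the receptors Robo1 (-0.30, SE 0.098) and Neo1 (-0.33, SE 0.12) were lower too, Robo1 being named after its value was seen. Robo4, a receptor of endothelium, was higher (0.62, SE 0.21). The abundant ligands Slit3 (15.6 RPKM) and Ntn1 (10.1 RPKM) had -0.01 (SE 0.15) and 0.15 (SE 0.10).

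**Figure D4:**
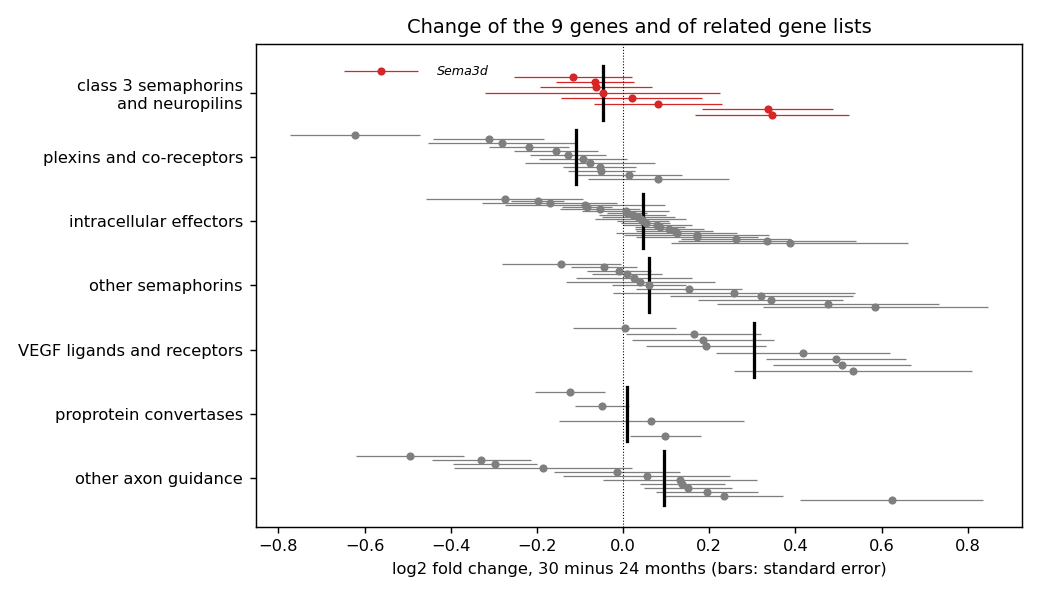
Log2 fold change, 30 minus 24 months, of each tested gene with its standard error, for the 9 class 3 semaphorins and neuropilins (red) and for 6 related lists (grey), with a black line at the median of each list. Sema3d lies apart from the other 8 genes, and the medians of the lists run from -0.11 (plexins and co-receptors) to 0.30 (vascular endothelial growth factor list).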

How the data were processed

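The authors clipped ears, prepared libraries with the TruSeq RNA v2 kit and sequenced single-end reads. The submitters' processing notes name CASAVA 1.8.4, TopHat2 2.1.0, HTSeq 0.6.1p1 and mm10. The deposited values were raw counts per Ensembl gene, from the authors' counting; 5 summary lines that name no gene were left out. Symbols and exon lengths came from GENCODE (GRCm38) and promoters from RefSeq (GRCm38.p6), with an entry for 7 of the 9 genes. RPKM used the union of exons and the total on genes.

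Counts were fitted with edgeR 4.0.16 in R 4.3.3 (TMM, filterByExpr by age, glmQLFit, terms for mouse and age) and adjusted by Benjamini-Hochberg over 20116 genes, with a threshold of 0.05; the fit was tested on simulated data. Both biopsies of a mouse come from the same animal, by the titles and the study's methods, so the mouse was a block; deviations of same-mouse libraries had a median correlation of -0.03. P-values cover the spread over 8 mice. Differences of levels on log2(RPKM + 0.1) are given with their SD; the planned tests of neighbouring genes are not reported, since the order came from the same values.

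The 9 genes and all lists were chosen with earlier results of these data known. Named genes were the 9, for each pathway list the 3 with the highest mean RPKM and the 3 with the largest change, and for each of the 9 the 3 genes (mean CPM of at least 1) with the highest correlation of log2 CPM. One gene that this rule names is not reported here. Alternatives were DESeq2 1.42.0 and its size factors, no filter, no block, age in months, single ages, another pseudocount or library size, and leaving out each mouse.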

Additional observations from a re-analysis of the deposited data

Results flagged for a closer look

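For each of the 9 genes, the levels at each age and the within-mouse changes were searched for a mouse far from the other 7 by Dixon's gap test, 27 groups in all, of which chance flags about 1 in 20 (1.35 groups). In 3 groups 1 mouse stood apart. Sema3c had 128.9 CPM at 30 months in mouse 29, with 90.2 CPM in the nearest other mouse. Sema3d had 282.9 CPM at 24 months in mouse 75, with 231 CPM in the nearest other mouse. Nrp1 had 75.17 CPM at 30 months in mouse 50, with 50.7 CPM in the nearest other mouse. Mouse 50 also had the highest macrophage and fibroblast marker changes, as given above.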

How the results depend on the processing

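The log2 fold changes of the 9 genes stayed within the spread over mice in 117 of 117 comparisons with an alternative. Over all genes, 0 passed the adjusted threshold in edgeR without any 1 mouse (0 to 0), 4 without the replicate block (2 higher, 2 lower) and 230 with the DESeq2 Wald test (77 higher, 153 lower), which called Sema3d and, in the pathway lists, 1 plexin, Plxna3 (lower). The DESeq2 call of Sema3d is on the contrast used to choose it. Genes with an unadjusted p under 0.05 numbered 2454, and 1736 to 3597 without 1 mouse. The causes were not tested.

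In the order of levels (log2 RPKM), Sema3f minus Sema3d was -0.069 at 24 months alone, and at 30 months alone Sema3d minus Sema3c was 0.5397 and Nrp2 minus Sema3b 0.4306. Sema3b minus Sema3e was 0.3698 at 24 months alone and 0.3074 to 0.5259 without 1 mouse, the highest without mouse 29. Nrp1 minus Nrp2 was 0.0589 to 0.1258 without 1 mouse, again highest without mouse 29. Sema3e minus Sema3g changed sign at 30 months alone (-0.1619) and without mouse 29 (-0.0445), 64 (-0.0437) or 75 (-0.0431), with a range of -0.0445 to 0.0965.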
